A study of Mus musculus with 12 samples.

Results

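The 6 genes Mpo, Elane, Prtn3, Ctsg, Ms4a3 and Serpinb1a were followed by symbol in a deposited table of 53465 genes, across 12 RNA-seq libraries of mouse bone marrow LSKs. LSKs are cells without markers of the mature lineages that carry Sca-1 and c-Kit, the gate that holds hematopoietic stem cells and multipotent progenitors. The libraries fell into 4 groups of 3: Tespa1+/+ untreated, Tespa1-/- untreated, Tespa1+/+ at day 9 after a single intraperitoneal injection of 5-fluorouracil (5-FU), and Tespa1-/- at day 9 after the same injection. 5-FU kills dividing cells, so that the marrow has to be refilled from its stem and progenitor cells. All mice were males of 8 to 10 weeks, the Tespa1+/+ mice being littermates, and the deletion (B6.129S-Tespa1tm1Smoc) was a germline allele carried by every cell, backcrossed to C57BL/6 for more than 6 generations. The sources used here do not say how many mice went into a library, so the p-values below measure the spread between libraries, which may in part be technical.

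Primary granules, also called azurophilic granules, are the first granules that form as a granulocyte-monocyte progenitor turns into a promyelocyte. Their main contents are myeloperoxidase and a family of serine proteases, which are made and packed within a short window and are switched off again before the later granule proteins appear. Their messages are a familiar early sign of myeloid bias in marrow progenitors, since they are transcribed from the multipotent stage on, under PU.1, C/EBP and MYB factors, well before any granule can be seen. Mpo encodes myeloperoxidase, the heme enzyme that makes hypochlorous acid. Elane, Prtn3 and Ctsg encode neutrophil elastase, proteinase 3 and cathepsin G, the serine proteases of the granule. Ms4a3 encodes a membrane protein of the MS4A family that marks granulocyte-monocyte progenitors, and Serpinb1a encodes a cytosolic serpin that inhibits neutrophil elastase, proteinase 3 and cathepsin G.

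In GRCm38 coordinates, Mpo (ENSMUSG00000009350) lies on the plus strand at chr11:87793581-87804413, Elane (ENSMUSG00000020125) on the plus strand at chr10:79886247-79888215 and Prtn3 (ENSMUSG00000057729) on the plus strand at chr10:79874476-79883174. Elane and Prtn3 are thus neighbours, 3073 bases apart. Ctsg (ENSMUSG00000040314) is on the minus strand at chr14:56099881-56102574, Ms4a3 (ENSMUSG00000024681) on the minus strand at chr19:11629496-11640851 and Serpinb1a (ENSMUSG00000044734) on the minus strand at chr13:32842092-32851185. The protease genes have 5 exons each in their principal transcript, Mpo has 14, and Ms4a3 and Serpinb1a have 7.

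The 250 bases before the RefSeq start (GRCm38.p6) are shown for the 5 genes with an entry, as the annotated promoter sequence of the genes measured. Serpinb1a had no entry. The windows are chr10:79886062-79886311 on the plus strand for Elane, chr10:79879417-79879666 on the plus strand for Prtn3, chr11:87793534-87793783 on the plus strand for Mpo, chr14:56102575-56102824 on the minus strand for Ctsg and chr19:11640852-11641101 on the minus strand for Ms4a3. Each is written 5′ to 3′ on the strand of its gene, with AGGAAGT, a form bound by PU.1 and other ETS factors, and TNNNGCAAT, a form bound by C/EBP factors, in capitals on either strand.
Elane: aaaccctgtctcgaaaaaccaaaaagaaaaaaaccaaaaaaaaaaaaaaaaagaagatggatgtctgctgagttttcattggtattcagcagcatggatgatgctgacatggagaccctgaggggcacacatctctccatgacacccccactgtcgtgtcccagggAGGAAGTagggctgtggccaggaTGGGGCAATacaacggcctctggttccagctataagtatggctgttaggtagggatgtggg
Prtn3: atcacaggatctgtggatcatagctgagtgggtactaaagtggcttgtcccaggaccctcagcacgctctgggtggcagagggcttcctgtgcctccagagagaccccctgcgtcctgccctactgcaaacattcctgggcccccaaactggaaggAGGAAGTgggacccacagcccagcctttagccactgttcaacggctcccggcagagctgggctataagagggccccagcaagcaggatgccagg
Mpo: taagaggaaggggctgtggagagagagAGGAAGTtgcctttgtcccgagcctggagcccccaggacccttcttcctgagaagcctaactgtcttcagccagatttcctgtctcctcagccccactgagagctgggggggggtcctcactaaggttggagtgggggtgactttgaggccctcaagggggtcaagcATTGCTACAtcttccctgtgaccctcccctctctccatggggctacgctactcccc
Ctsg: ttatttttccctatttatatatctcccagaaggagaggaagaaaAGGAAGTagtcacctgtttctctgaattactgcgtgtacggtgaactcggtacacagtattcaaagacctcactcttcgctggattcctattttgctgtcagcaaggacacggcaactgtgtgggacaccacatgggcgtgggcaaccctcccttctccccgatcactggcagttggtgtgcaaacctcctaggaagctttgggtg
Ms4a3: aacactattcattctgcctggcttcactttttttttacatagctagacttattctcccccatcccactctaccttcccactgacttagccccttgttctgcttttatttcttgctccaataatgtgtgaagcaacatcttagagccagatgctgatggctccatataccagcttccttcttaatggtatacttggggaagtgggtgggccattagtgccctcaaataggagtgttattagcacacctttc

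AGGAAGT or its reverse complement was found in the windows of Elane, Prtn3, Mpo and Ctsg, 4 of the 5, and in 7.69% of 32851 RefSeq windows of the same length. It began 84 bases before the start in Elane, 94 in Prtn3, 206 in Ctsg and 223 in Mpo. TNNNGCAAT was found in Elane, 61 bases before the start, and in Mpo, 56 bases before it, against 6.09% of all windows. The form of MYB sites AACNG was in 4 of the 5 windows and in 74.2% of all, the RUNX form TGTGGT in that of Ctsg and in 14% of all, and TATAA in 3 and in 22.8% of all. TATAA began 31 bases before the start in Elane and 32 bases before it in Prtn3. None of these 5 forms was found in the Ms4a3 window, which says only that these letters are not in it. No matches of different forms overlapped each other. They were chosen after the sequences had been seen and are a description of letters, not of binding. The deposited models of Mpo, Elane and Prtn3 begin upstream of the RefSeq start, so that the windows of Mpo and Elane overlap them in part and that of Prtn3 lies within its model.

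Library totals ran from 22118154 to 28275079 counts, and all 6 genes passed the filter on low counts in every comparison. The lowest count of any member in any library was 169, for Ms4a3 in untreated Tespa1+/+ LSKs. Reads on Tespa1, the deleted gene, were lower but present in Tespa1-/- libraries, at 34.5 to 34.9 CPM (counts scaled to a common library size, with TMM factors) against 43 to 49.8 in Tespa1+/+ when untreated, and at 17.3 to 20.8 against 47.2 to 57.5 after 5-FU. The corresponding log2 differences were -0.42 (SE 0.088, adjusted p = 0.0316) and -1.47 (SE 0.124, adjusted p = 9.38e-05). The first was no longer called in 5 of the 6 fits that left out a library, with adjusted p up to 0.14. A count over the whole gene cannot tell deleted from remaining exons.

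The LSK label was checked against markers. All 9 LSK and stem cell markers had counts in every library, Kit at 342 to 467 CPM and Ly6a, which encodes Sca-1, at 15.3 to 36 CPM in the group means. Their summed level, in CPM of the library total without TMM factors, was 759 to 834 in Tespa1-/- libraries after 5-FU, against 1304 to 1355 in Tespa1+/+ after 5-FU. Without treatment it was 1275 to 1331 in Tespa1-/- and 1537 to 1607 in Tespa1+/+, with no overlap, and 3 of the 9, Cd34, Flt3 and Mecom, were called lower in Tespa1-/-, beside 7 of 9 after 5-FU. The 15 later neutrophil granule genes, which a gate without lineage markers should lack, summed to 1171 to 1175 in the 3 Tespa1-/- libraries after 5-FU and to 24.6 to 64.1 in the other 9, where 5 to 12 of the 15 were at 0 and Padi4 alone, at 20.6 to 46.6 CPM in the group means, made up most of the sum. The 6 eosinophil markers summed to 648 to 688 in those 3 libraries and to 0 to 2.32 in the others, and the 9 erythroid markers to 672 to 704 against 145 to 274. In bulk RNA, fewer or more cells of a type cannot be told apart from less or more RNA per cell. The 7 monocyte and macrophage markers summed to 365 to 389 in untreated Tespa1-/- libraries against 230 to 271 in untreated Tespa1+/+, and 2 were called higher and 1 lower. With 5-FU in Tespa1+/+, the 7 B cell markers went from 63.3 to 75.8 up to 290.3 to 305 (7 called higher), and the 6 megakaryocyte markers from 43.6 to 50.4 up to 177 to 199 (4 of 5 tested called higher). In untreated Tespa1-/- libraries the B cell markers summed to 41.9 to 47.5 (3 called lower than in Tespa1+/+) and the megakaryocyte markers to 74.3 to 79.6 (1 of 5 called higher). The 5 basophil and mast cell markers summed after 5-FU to 23.3 to 27.2 in Tespa1+/+ and 84 to 91.7 in Tespa1-/- (5 called higher). Marker levels thus differed beside the members' levels in each comparison, and their part in the members' values was not tested.

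**Figure D1:**
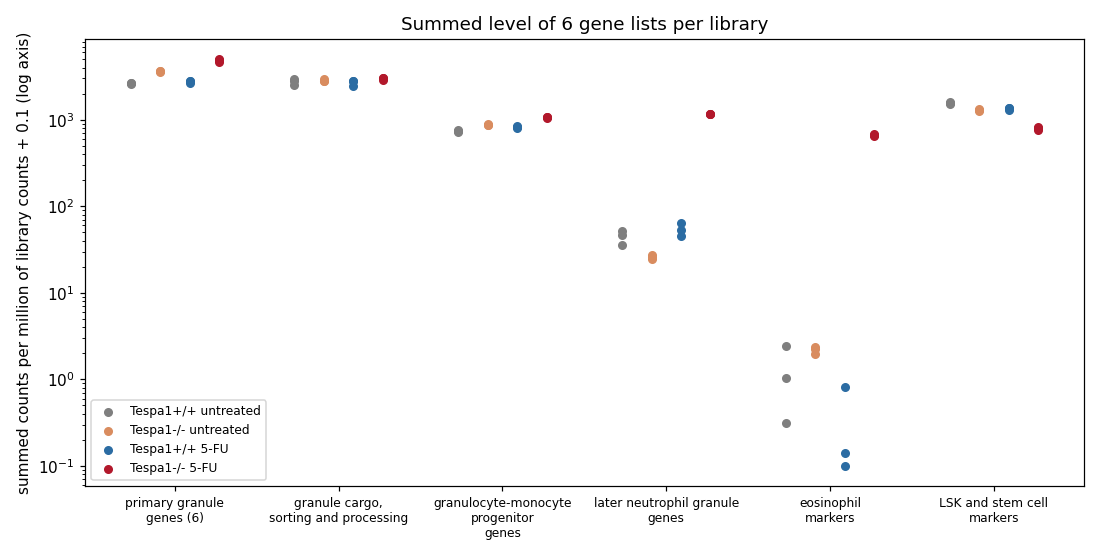
Summed CPM (of the library total, plus 0.1, log axis) of 6 gene lists in each of the 12 libraries, 1 point per library, coloured by group. The primary-granule genes ran from 2597 to 4997 over all libraries, while the later neutrophil granule genes and the eosinophil markers stood at 1171 to 1175 and 648 to 688 in Tespa1-/- LSKs after 5-FU, against at most 64.1 and 2.32 elsewhere.

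Without treatment, the members took 0.264% ± 0.00385 of all counts in Tespa1+/+ LSKs and 0.361% ± 0.0082 in Tespa1-/- LSKs (mean ± SD, n = 3 each). With 5-FU these shares were 0.277% ± 0.00969 and 0.486% ± 0.016. The ranges of the 2 Tespa1+/+ groups overlapped, and every Tespa1-/- library lay above every Tespa1+/+ library. Mpo alone made up 85.9% of the members' counts in both untreated groups, and 79.7% (Tespa1+/+) and 74.1% (Tespa1-/-) of them with 5-FU. On the deposited FPKM scale, which divides by gene length, the order in untreated Tespa1+/+ LSKs was Mpo at 470, Ctsg at 74.6, Elane at 70.9, Prtn3 at 34.6, Serpinb1a at 31.7 and Ms4a3 at 2.92. Ctsg and Elane overlapped in that group, and so did Prtn3 and Serpinb1a. In Tespa1-/- LSKs after 5-FU, the FPKM order was Mpo at 748, Elane at 479, Ctsg at 209, Prtn3 at 99.1, Serpinb1a at 41.8 and Ms4a3 at 30.9, with no overlap between neighbours. The length behind the FPKM of Prtn3 was 2960 bases and that of its principal transcript 1025 bases, and with the second Prtn3 stood at 286 in that group, beside 294 for Ctsg. Among protein-coding genes ranked by FPKM, Mpo moved from places 32 to 38 in untreated Tespa1+/+ libraries to places 16 to 21 in Tespa1-/- libraries after 5-FU, Elane from 300 to 312 up to 40 to 47, and Ms4a3 from 6525 to 7122 up to 758 to 841.

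**Figure D2:**
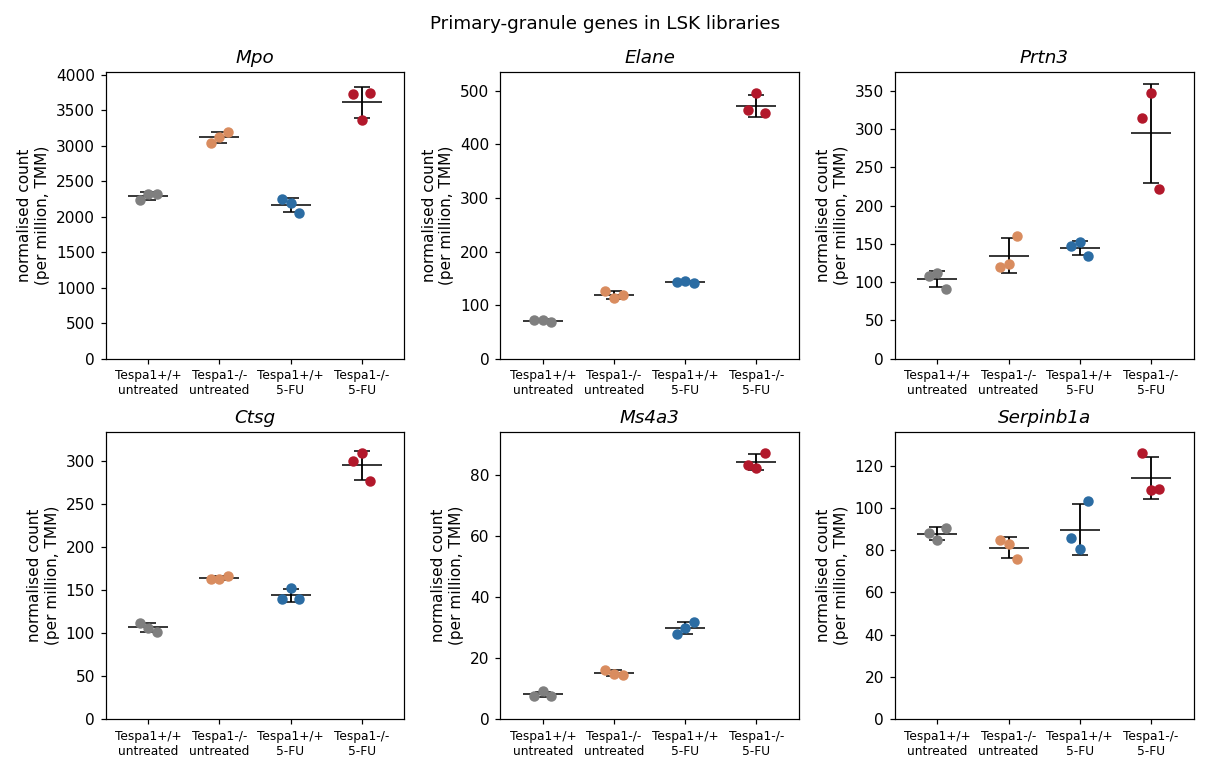
Normalised CPM (y axes from 0) of each of the 6 genes in the 12 libraries, grouped on the x axes. Points are libraries, wide bars the mean and whiskers the SD of 3 libraries. The 3 Tespa1-/- libraries after 5-FU lay above the other 9 for each gene, Serpinb1a by the smallest margin, 108 against 103 CPM.

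Mpo, the most abundant member, separated the genotypes and hardly moved with 5-FU in Tespa1+/+ LSKs. In untreated LSKs it was at 2233, 2326 and 2320 CPM in Tespa1+/+ and at 3037, 3124 and 3196 CPM in Tespa1-/-. After 5-FU it was at 2245, 2196 and 2049 CPM in Tespa1+/+ and at 3727, 3365 and 3742 CPM in Tespa1-/-. The genotypes did not overlap under either treatment, whereas the treatments overlapped within Tespa1+/+ and did not within Tespa1-/-. Loss of Tespa1 went with a log2 fold change of 0.45 (SE 0.027, adjusted p = 6.94e-05), 1.36-fold, in untreated LSKs and of 0.73 (SE 0.046, adjusted p = 1.48e-05), 1.66-fold, after 5-FU. 5-FU went with -0.082 (SE 0.036, adjusted p = 0.232) in Tespa1+/+ and 0.20 (SE 0.039, adjusted p = 0.00812) in Tespa1-/-. The difference between the 2 genotype effects, the interaction, was 0.29 (SE 0.058, adjusted p = 0.0105). An antisense gene, Gm11505, overlaps Mpo and was at 0 to 1.15 CPM.

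Elane rose in every comparison and at each step by more than the spread of its libraries. It was at 71.6, 72.7 and 67.8 CPM in untreated Tespa1+/+ LSKs and at 126, 112 and 118 CPM in untreated Tespa1-/-. After 5-FU the libraries had 144, 145 and 142 CPM in Tespa1+/+ and 463, 495 and 458 CPM in Tespa1-/-. No 2 groups overlapped, and the mean of the highest was 6.68 times that of the lowest. The genotypes differed by 0.75 on the log2 scale (SE 0.069, adjusted p = 0.000609) without treatment and by 1.71 (SE 0.05, adjusted p = 1.31e-07), 3.28-fold, after 5-FU. The treatments differed by 1.02 (SE 0.068, adjusted p = 4e-05) in Tespa1+/+ and by 1.98 (SE 0.058, adjusted p = 1.63e-07), 3.93-fold, in Tespa1-/-. With 0.96 (SE 0.079, adjusted p = 1.21e-05), Elane had the interaction with the smallest adjusted p among the members.

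Prtn3, the neighbour of Elane, rose with it after 5-FU and was the least even of the members in the Tespa1-/- groups. Its libraries had 107, 112 and 91.7 CPM in untreated Tespa1+/+ LSKs and 119, 124 and 161 CPM in untreated Tespa1-/-. They had 147, 152 and 135 CPM in Tespa1+/+ after 5-FU, and 314, 347 and 222 CPM in Tespa1-/- after 5-FU. The genotypes did not overlap under either treatment, yet the coefficient of variation reached 22% in Tespa1-/- after 5-FU, where replicate 3 was low, against 4.32% for Elane in the same libraries. The genotype effect was 0.38 (SE 0.124, adjusted p = 0.143) in untreated LSKs, which did not pass the test, and 1.02 (SE 0.139, adjusted p = 0.00145), 2.03-fold, after 5-FU. The effect of 5-FU was 0.48 (SE 0.091, adjusted p = 0.0121) in Tespa1+/+ and 1.12 (SE 0.165, adjusted p = 0.00189) in Tespa1-/-, and the interaction of 0.65 (SE 0.21, adjusted p = 0.103) did not pass. Leaving out replicate 3 of Tespa1-/- after 5-FU brought the interaction of Prtn3 to an adjusted p of 0.0183, and leaving out replicate 1 or 2 of Tespa1+/+ after 5-FU took its 5-FU effect in Tespa1+/+ to 0.0542 and 0.0588.

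The 5′ end of the Prtn3 model overlaps Plppr3, a gene of the opposite strand that encodes a phospholipid phosphatase-related protein, and whether the counting used strand is not given in the sources used here. Plppr3 stood at 106 to 136 CPM in the untreated libraries. After 5-FU it was at 104, 29.8 and 120 CPM in Tespa1+/+ and at 116, 35.5 and 91.9 CPM in Tespa1-/-. Replicate 2 of both 5-FU groups was thus low in Plppr3 and had the highest Prtn3 level of its group. The part of Plppr3 in the Prtn3 values was not tested.

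Ctsg followed Elane in sign, with smaller steps. In untreated LSKs it was at 112, 106 and 102 CPM in Tespa1+/+ and at 163, 162 and 166 CPM in Tespa1-/-. After 5-FU it was at 139, 153 and 140 CPM in Tespa1+/+ and at 300.2, 309 and 277 CPM in Tespa1-/-. All 4 groups were separate, and untreated Tespa1-/- libraries lay above Tespa1+/+ libraries after 5-FU, the reverse of the order seen for Elane and Ms4a3. The genotype effect was 0.62 (SE 0.058, adjusted p = 0.000656), 1.54-fold, without treatment and 1.03 (SE 0.064, adjusted p = 1.37e-05), 2.04-fold, after 5-FU. 5-FU went with 0.44 (SE 0.072, adjusted p = 0.00653) in Tespa1+/+ and 0.84 (SE 0.052, adjusted p = 1.42e-05) in Tespa1-/-. The interaction was 0.41 (SE 0.085, adjusted p = 0.0127).

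Ms4a3 was the lowest member and had the widest range. Its levels were 7.42, 9.07 and 7.65 CPM in untreated Tespa1+/+ LSKs, from 169 to 208 counts, and 16.2, 14.7 and 14.4 CPM in untreated Tespa1-/-. They were 27.9, 29.8 and 31.7 CPM in Tespa1+/+ after 5-FU and 83.3, 82.2 and 87.1 CPM in Tespa1-/- after 5-FU. The groups were separate in the same order as for Elane, and the highest mean was 10.5 times the lowest. 5-FU went with 1.89 (SE 0.154, adjusted p = 0.000121), 3.71-fold, in Tespa1+/+ and 2.47 (SE 0.084, adjusted p = 4.61e-07), 5.53-fold, in Tespa1-/-. The genotype effect was 0.91 (SE 0.155, adjusted p = 0.0134) in untreated LSKs and 1.49 (SE 0.088, adjusted p = 1.01e-05) after 5-FU. That in untreated LSKs did not pass the test when any 1 of the 3 Tespa1-/- libraries was left out, with adjusted p from 0.0594 to 0.0805. The interaction of 0.59 (SE 0.144, adjusted p = 0.0347) was lost in 8 of the 12 fits that left out a library, with adjusted p up to 0.0982.

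Serpinb1a, the inhibitor, stayed closest to even. It was at 88.3, 84.7 and 90.5 CPM in untreated Tespa1+/+ LSKs and at 84.7, 83.1 and 75.6 CPM in untreated Tespa1-/-. After 5-FU the libraries had 85.6, 80.5 and 103 CPM in Tespa1+/+ and 126, 108 and 109 CPM in Tespa1-/-. In the order of levels, Tespa1-/- after 5-FU stood apart and the other 3 groups overlapped. Of its 5 tests, that of 5-FU in Tespa1-/- passed, with 0.48 (SE 0.079, adjusted p = 0.00312), 1.4-fold. The genotype effects were -0.11 (SE 0.069, adjusted p = 0.451) untreated and 0.35 (SE 0.103, adjusted p = 0.0579) after 5-FU, 5-FU in Tespa1+/+ gave 0.033 (SE 0.101, adjusted p = 0.898), and the interaction was 0.46 (SE 0.133, adjusted p = 0.0663). Without replicate 3 of Tespa1+/+ after 5-FU, the highest of its group, the genotype effect after 5-FU was 0.46 with an adjusted p of 0.0212 and the interaction had an adjusted p of 0.0221. With all libraries, DESeq2 also called both (adjusted p = 0.0148 and 0.022). Serpinb1a shares an identical run of 81 bases with Serpinb1b and of 71 with Serpinb1c, so that some of its reads could be assigned to either, and these copies were at 0 to 0.498 CPM in the group means. Between Elane, Prtn3 and Ctsg the longest identical run was 17 bases, and between Mpo and its relative Epx 26.

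Counted over the members, 4 of 6 were higher in Tespa1-/- than in Tespa1+/+ LSKs without treatment, where 1.64% of 17055 genes tested were called higher and 5.23% in either direction. After 5-FU, 5 of 6 were higher in Tespa1-/-, beside 7.34% of 17239 genes called higher and 13.1% either way. 5-FU raised 4 of 6 in Tespa1+/+, beside 3.77% (7.95% either way) of 17002 genes, and 6 of 6 in Tespa1-/-, beside 10.7% (19.4% either way) of 17228 genes. The interaction passed for 4 of 6, all with a larger genotype effect after 5-FU, beside 3.02% of 18696 genes with a positive call and 5.01% with a call of either sign. In the 5 comparisons as named, 3.59%, 5.78%, 4.18%, 8.64% and 1.99% of genes were called lower with edgeR, and 0 of the 6 members in each. At an unadjusted p under 0.05, 1 member was lower in 1 comparison with edgeR, Mpo for 5-FU in Tespa1+/+, and DESeq2 called 0 lower.

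With a fold change over 1.5 asked for as well, the members called were Elane, Ctsg and Ms4a3 in untreated LSKs, 3 of 6 beside 2.51% of genes, and all but Serpinb1a after 5-FU, 5 of 6 beside 6.98%. For 5-FU they were Elane and Ms4a3 in Tespa1+/+, 2 of 6 beside 4.43% (also 2 with an unadjusted p, beside 9.88%), and the 3 proteases and Ms4a3 in Tespa1-/-, 4 of 6 beside 10.1%. For the interaction they were Elane and Ms4a3, 2 of 6 beside 3.21%. All libraries of a group lay above all those of the other for 5 of 6 members between untreated genotypes, where 12.3% of genes did, and for 6 of 6 between genotypes after 5-FU, where 17.5% did. They did so for 4 of 6 with 5-FU in Tespa1+/+, beside 14% of genes, and for 6 of 6 in Tespa1-/-, beside 20.4%.

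The members' median log2 fold changes were 0.53, 1.02, 0.46, 0.98 and 0.52 in this order of comparisons, while the median over all genes tested lay between -0.021 and 0.014. The comparisons share groups, so their results are not independent of each other. By log2 fold change in Tespa1-/- against Tespa1+/+ after 5-FU, Elane was at place 383 and Ms4a3 at place 458 of the 17239 genes, and Mpo at 1294.

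**Figure D3:**
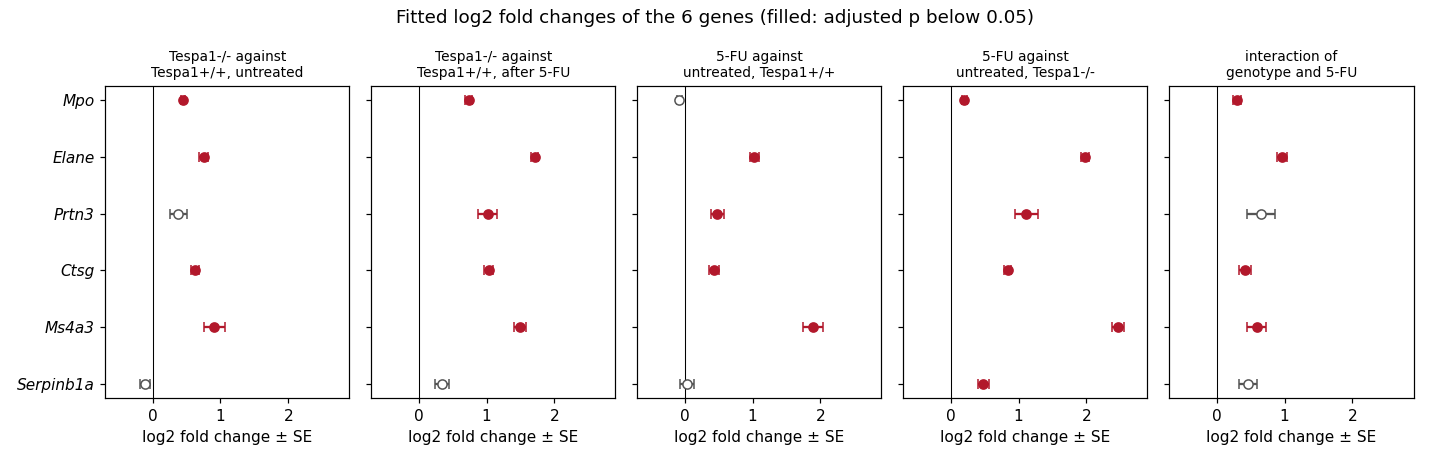
Fitted log2 fold changes with their SE (x axes) of the 6 genes (y axis) in the 5 comparisons. Filled symbols had an adjusted p below 0.05. The open symbols were Prtn3 and Serpinb1a in untreated LSKs, Serpinb1a after 5-FU, Mpo and Serpinb1a for 5-FU in Tespa1+/+, and Prtn3 and Serpinb1a for the interaction.

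Within a library, ratios between members do not depend on its total. The log2 ratio of Elane to Mpo counts was -5.02 ± 0.069 (Tespa1+/+) and -4.71 ± 0.112 (Tespa1-/-) without treatment, and -3.91 ± 0.056 and -2.94 ± 0.148 with 5-FU (SD, n = 3). These 4 groups did not overlap. In counts, which are not divided by gene length, Elane was below Ctsg in every untreated library (log2 ratios from -0.648 to -0.366). It was level with Ctsg in Tespa1+/+ after 5-FU (-0.075 to 0.047) and above it in Tespa1-/- after 5-FU (0.626 to 0.725). For each pair of groups compared, the exact two-sided permutation p of these count ratios was 0.1, the smallest that 3 libraries against 3 allow. The order of the 2 genes depends on the length used. By FPKM, the mean of Elane was above that of Ctsg in untreated Tespa1-/- (120.4 against 115.5, libraries overlapping) and in Tespa1+/+ after 5-FU (149 against 104.2). Prtn3 relative to Mpo did not separate the genotypes, with -4.47 ± 0.165 and -4.55 ± 0.201 in untreated LSKs and -3.90 ± 0.046 and -3.64 ± 0.403 after 5-FU (exact permutation p = 0.9 and 0.4). RNA counts of Elane per count of Serpinb1a, its inhibitor, were 0.806 ± 0.055 (Tespa1+/+) and 1.47 ± 0.107 (Tespa1-/-) without treatment, and 1.62 ± 0.216 and 4.15 ± 0.448 with 5-FU. Untreated Tespa1-/- and 5-FU-treated Tespa1+/+ libraries overlapped in this ratio, and the other groups stood apart. The ratio is not divided by gene length, so its value is not one of transcripts or proteins. By FPKM, Elane was at 70.9 and Serpinb1a at 31.7 in untreated Tespa1+/+.

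**Figure D4:**
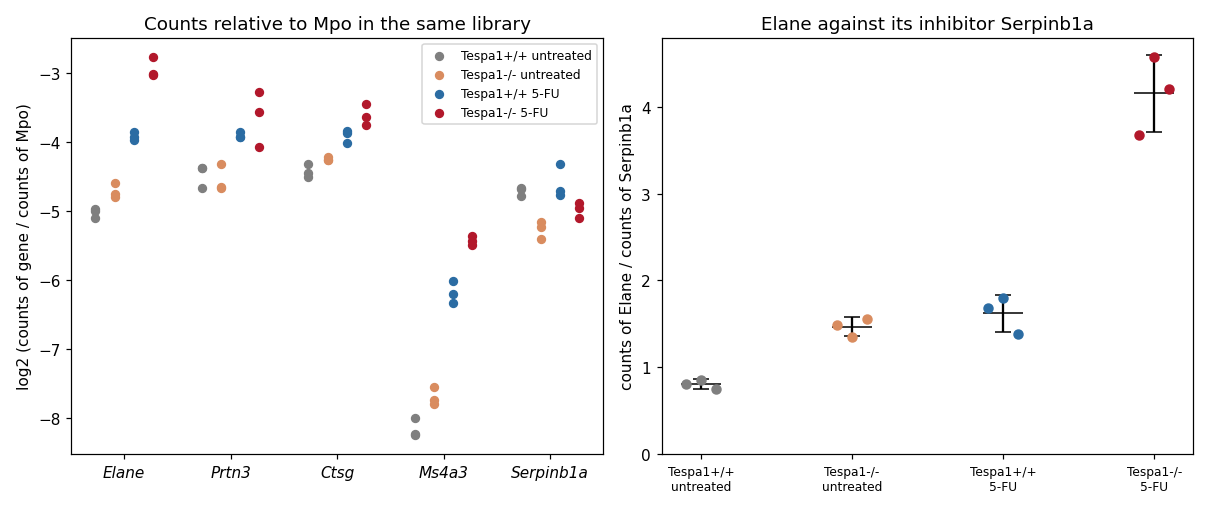
Left, log2 of the counts of 5 members over those of Mpo in the same library, 1 point per library, coloured by group. Right, counts of Elane over counts of Serpinb1a from 0, with mean and SD of 3 libraries. Elane relative to Mpo rose from about -5.02 to -2.94, and its ratio to Serpinb1a from 0.806 to 4.15.

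Of 13 genes for granule cargo, sorting and processing, 11 could be tested, and Lyz1 and Bpi had too few counts. With edgeR, 0 of the 11 were called between the genotypes in untreated LSKs, and 0 of the 11 for 5-FU in Tespa1+/+. In each of these comparisons 3 of them had an unadjusted p under 0.05 and DESeq2 called 1. In Tespa1-/- after 5-FU, 7 of 11 were called higher than in Tespa1+/+ and 0 lower with edgeR. DESeq2 also called 7, and 8 had an unadjusted p under 0.05, the eighth being Srgn, given below. Lyz2, which encodes lysozyme, went from 54.2 to 162 CPM (log2 fold change 1.58, SE 0.085, adjusted p = 5.84e-06), Prss57, a further serine protease of the granule, from 9.34 to 20.2 CPM (1.11, SE 0.185, adjusted p = 0.00417). The others called include Cd63, a granule membrane protein, from 21.8 to 37.1 CPM (0.76, SE 0.118, adjusted p = 0.00284) and Cst7, an inhibitor of cysteine cathepsins, from 23 to 35.6 CPM (0.62, SE 0.176, adjusted p = 0.0457). Ctsc, the protease that activates elastase, proteinase 3 and cathepsin G, was at 31.2, 31.3, 32.4 and 35.5 CPM in the order of groups used above and passed no test. Srgn, the core protein that holds the proteases in the granule, had 316 CPM (Tespa1+/+) against 141 CPM after 5-FU (log2 fold change -1.17, SE 0.351, adjusted p = 0.0582).

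Of 9 further inhibitors of serine proteases, 6 could be tested between the genotypes after 5-FU. Serpina3f (31.7 against 14.9 CPM, log2 fold change -1.10, SE 0.162, adjusted p = 0.00222) and Serpina3g (210.1 against 123.4 CPM, -0.77, SE 0.057, adjusted p = 4.04e-05) were lower in Tespa1-/- and 0 were called higher with edgeR. Slpi, an inhibitor secreted by epithelia and neutrophils, was at 6.3 and 11.1 CPM (0.82, SE 0.242, adjusted p = 0.056 with edgeR), and with it 3 of the 6 had an unadjusted p under 0.05 and were called by DESeq2. In untreated LSKs, 0 of 7 were called with edgeR or DESeq2, and 1 had an unadjusted p under 0.05. Serpina3g rose with 5-FU in Tespa1+/+, from 91.7 to 210.1 CPM (1.2, SE 0.126, adjusted p = 0.000549).

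All 9 regulators of granule gene transcription were tested. With 5-FU, 1 was called higher and 2 lower in Tespa1+/+, and 2 higher and 3 lower in Tespa1-/-. In Tespa1-/- after 5-FU, 3 were higher and 1 lower than in Tespa1+/+. Cebpe, the factor of the later granules, went from 0.603 to 11.3 CPM (log2 fold change 4.21, SE 0.738, adjusted p = 0.00541), Gfi1 from 17.2 to 41.7 CPM (1.27, SE 0.212, adjusted p = 0.00411), Cebpa from 58.3 to 92.9 CPM (0.67, SE 0.136, adjusted p = 0.0114) and Runx1 from 246 to 195 CPM (-0.34, SE 0.065, adjusted p = 0.00843). In untreated LSKs, Cebpa (67.6 against 88.1 CPM, 0.38, SE 0.087, adjusted p = 0.0419) and Myb (677 against 768 CPM, 0.19, SE 0.036, adjusted p = 0.0238) were higher in Tespa1-/-, and Cebpb was lower (203 against 99.3 CPM, -1.03, SE 0.053, adjusted p = 3.31e-05). Spi1, which encodes PU.1, was at 84.1, 86.3, 80.3 and 92.8 CPM in the order of groups used above and passed no test.

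Of 12 genes of the granulocyte-monocyte progenitor, 4 were called higher with edgeR in untreated Tespa1-/- LSKs and 8 after 5-FU, and 0 lower in either. Untreated, 7 had an unadjusted p under 0.05 and DESeq2 called 4. After 5-FU, 10 had an unadjusted p under 0.05 and were called by DESeq2, among them Csf3r, the G-CSF receptor, which was lower (124 against 107 CPM, -0.22, SE 0.07, adjusted p = 0.0705 with edgeR). Examples after 5-FU are Fcgr3, the Fc receptor by which these progenitors are gated, at 10.5 CPM (Tespa1+/+) against 37.2 CPM (Tespa1-/-), with a log2 fold change of 1.82 (SE 0.201, adjusted p = 0.000441) and Csf2ra, a chain of the GM-CSF receptor, at 22.9 and 52.6 CPM (1.2, SE 0.11, adjusted p = 0.000155). In untreated LSKs, Hk3, a hexokinase of myeloid cells, had 93.3 CPM against 119 CPM in Tespa1-/- (0.36, SE 0.081, adjusted p = 0.0419). Of the 15 later neutrophil granule genes, 5 could be tested in untreated LSKs. Padi4, which encodes a deiminase and not a granule protein, was lower in Tespa1-/- (-1.08, SE 0.141, adjusted p = 0.00385). With edgeR, 0 were called higher, while 4 of the 5 had an unadjusted p under 0.05 and DESeq2 called 2. Apart from Padi4, the levels of these genes were low in both genotypes, S100a9 for example at 0.149 and 1.12 CPM. After 5-FU, 13 of the 15 were higher in Tespa1-/- and Padi4 was lower. Ltf, which encodes the lactoferrin of the secondary granules, went from 0.715 to 152 CPM and S100a9 from 1.29 to 316 CPM.

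Of 9429 genes with a mean of at least 10 CPM, 10 had the profile over the 12 libraries nearest to the mean profile of the members, by the root mean square difference of log2(CPM + 1) centred on each gene. This difference ran from 0.122 to 0.192 for the 10, with a median of 0.626 over all genes. In order, they include Alas1 and Fech, which encode the first and the last enzyme of heme synthesis, Tspoap1, Dio2, a deiodinase, Gsr, which encodes glutathione reductase, Arhgap19, Igsf6, Hist1h1b and Sept8. Alas1 had group means of 40.6, 61.1, 55.5 and 130.2 CPM and Gsr of 58.8, 71.8, 64.6 and 159 CPM, in the order of groups used above. These genes were selected for the pattern, so their values are a description. Of the members, Ctsg (0.141) and Prtn3 (0.166) were nearest to the mean profile and Ms4a3 (0.635) farthest from it.

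**Figure D5:**
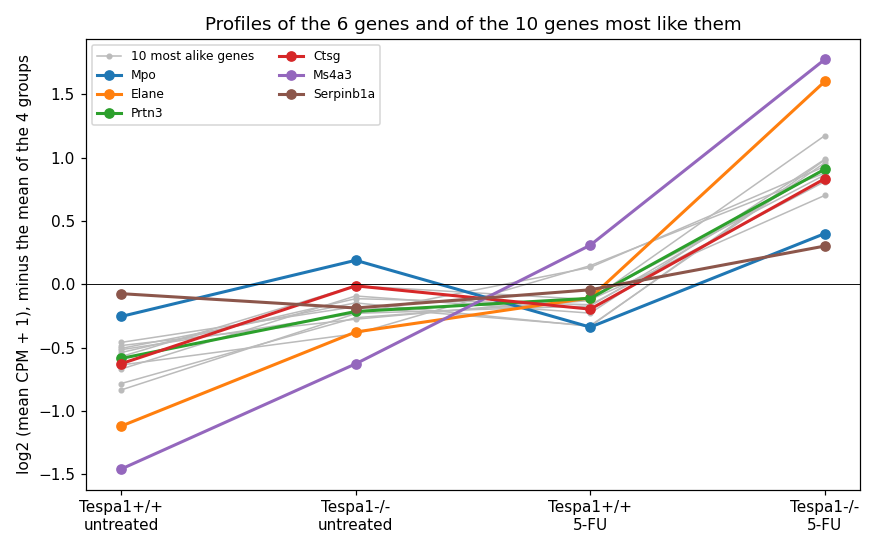
Log2 of the mean CPM plus 1 of each group, minus the mean of the 4 groups (y axis), for the 6 members (colours) and the 10 genes most like them (grey). Ctsg and Prtn3 ran close to the grey lines, Elane and Ms4a3 covered a wider range, and Mpo and Serpinb1a a narrower one.

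The 3 nearest genes that passed the filter on low counts over all 12 libraries were taken on each side of each member, together with genes that overlap one, at distances of up to 1066733 bases. Leaving out the members themselves, 2 of 27 tested were higher in untreated Tespa1-/- LSKs, beside 1.64% of all genes, and 4 of 29 were higher after 5-FU, beside 7.34%, and 1 lower. 5-FU went with 4 of 27 higher in Tespa1+/+, beside 3.77% of all genes, and 1 lower, and with 7 of 29 higher in Tespa1-/-, beside 10.7%. Their median log2 fold changes were 0.046, 0.14, 0.004 and 0.099 in these comparisons. Beside Mpo, Tspoap1, 7653 bases away, rose from 47 CPM in Tespa1+/+ to 93.1 CPM in Tespa1-/- after 5-FU (0.98, SE 0.097, adjusted p = 0.00022), and Epx, 59587 bases away, which encodes eosinophil peroxidase, from 0.0648 to 201.2 CPM. Beside Ctsg, Mcpt8, a protease of basophils, went from 3.25 to 16.5 CPM (2.34, SE 0.221, adjusted p = 0.000174), and beside Ms4a3, Ms4a2, a chain of the IgE receptor, from 4.2 to 12.6 CPM (1.57, SE 0.4, adjusted p = 0.0308), whereas Ms4a6b fell by 1.14 on the log2 scale (39 against 17.8 CPM, SE 0.146, adjusted p = 0.000995). Around Elane and Prtn3, Med16, 6493 bases from Elane, was at 44.2 and 50.2 CPM in the genotypes after 5-FU (0.18, SE 0.108, adjusted p = 0.33). Tespa1 itself is on chromosome 10, as are Elane and Prtn3, 50.4 megabases from Elane.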

How the data were processed

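RNA came from LSKs sorted by FACS after lineage depletion. The libraries are described as poly-A selected and stranded, sequenced as paired ends on a NovaSeq. The most abundant genes include the ribosomal RNA genes mt-Rnr1 and mt-Rnr2 and the noncoding RNA genes Rn7s1, Rn7s2, Rn7sk and Rpph1. How the levels of these genes bear on the described poly-A selection was not tested. Per the labels, the authors' processing used GRCm38, and the submitters' processing notes name HISAT2, StringTie, CASAVA 1.8 and edgeR without their roles. The deposited table held raw read counts per gene, for which neither the counting tool nor its use of strand is given in the sources used here, and FPKM, which the authors had divided by gene length and library size. Counts were tested here. FPKM was used for levels per length only.

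Genes were filtered with filterByExpr, scaled by TMM and tested with edgeR 4.0.16 (glmQLFit, glmQLFTest, R 4.3.3). The 6 libraries of the groups compared entered each fit, and all 12 the interaction. Benjamini-Hochberg adjustment ran over all genes tested, and an adjusted p below 0.05 was called. CPM used TMM factors over 12 libraries. Single ratios were compared by exact two-sided permutation. At these depths 3 counts equal 0.106 to 0.136 CPM. Replicates differed by more than sampling noise (median chi-square 2.04 to 5.51), so all were kept as separate libraries. Promoters came from RefSeq. Scripts were tested on simulated data.

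The members and gene lists were chosen with earlier results of these data known. Genes named are the members, the lists' examples (the largest changes past the test and those at 10 CPM or more), the 10 genes most like the members and, on each side of each member, the 3 nearest genes that passed the filter on low counts. Genes named outside this rule were chosen after their values were seen. Alternatives were DESeq2 1.42.0, other scalings and filters, a replicate block, a 12-library fit, a fold threshold and leaving out each library. One gene among the 10 most like the members is not reported here.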

Additional observations from a re-analysis of the deposited data

Results flagged for a closer look

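The genotype effect differed between untreated and 5-FU-treated LSKs, by the interaction term of the 12-library edgeR fit, for 4 members and for the deleted gene. The differences of the log2 genotype effects were 0.963 for Elane (adjusted p = 1.21e-05), 0.293 for Mpo (adjusted p = 0.0105), 0.414 for Ctsg (adjusted p = 0.0127) and 0.587 for Ms4a3 (adjusted p = 0.0347). That of Ms4a3 lost its call in most fits that left out a library, with adjusted p up to 0.0982. Tespa1 itself had -1.045 (adjusted p = 0.00104), its reads in Tespa1-/- being lower after 5-FU than without it. The Tespa1-/- libraries after 5-FU that raise these differences also held the later neutrophil, eosinophil and erythroid counts given above, and the part of those in the differences was not tested. Groups of 3 libraries are too small for a test of single outlying libraries.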

How the results depend on the processing

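Of 420 recomputed log2 fold changes of members, 419 kept their direction and 392 also their side of the threshold, while 18 lost a call and 9 gained one. The exception in direction, Serpinb1a for 5-FU in Tespa1+/+, was called in neither fit and ran from -0.078 (without replicate 3 of Tespa1+/+ after 5-FU) to 0.104 over the fits without a library. DESeq2 also called Prtn3 in untreated LSKs (adjusted p = 0.0281) and, for the interaction, Prtn3 (0.0227) and Serpinb1a (0.022). Serpinb1a was also called for genotype after 5-FU by DESeq2 (0.0148), with at least 10 counts in every library (0.0477) and in the 12-library fit (0.0233). Ms4a3 lost its interaction with library totals (0.0517) and with no filter (0.0591). The 12-library fit took Prtn3 for 5-FU in Tespa1+/+ to 0.0553. Leaving out 1 library, the members called numbered 3 to 4 for genotype untreated, 5 to 6 after 5-FU, 3 to 4 for 5-FU in Tespa1+/+, 6 in Tespa1-/- and 3 to 5 for the interaction. With a fold over 1.5 they numbered 2 for 5-FU in Tespa1+/+, by adjusted or unadjusted p, and 2 for the interaction, because the fold itself removes calls. Without the 10 most abundant genes in the denominator, the members' shares of counts were 0.3291%, 0.467%, 0.3506% and 0.6223%, and leaving out a library gave 0.2616 to 0.2655%, 0.3573 to 0.3655%, 0.274 to 0.2826% and 0.4792 to 0.4949%. The Tespa1 difference ran from -0.471 to -0.362 untreated, its call lost in 5 of 6 such fits, and from -1.544 to -1.392 after 5-FU. The cause of these changes was not tested.

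Over the genes that passed the filter on low counts, same-numbered replicates did not deviate together (correlations -0.0566 to 0.0253). A correlation over so many genes cannot show whether the numbers pair the libraries for a few of them. Replicate 2, for example, was low in Plppr3 in both 5-FU groups, and what this owes to pairing was not tested. With a replicate block, Tespa1 untreated was -0.414 (adjusted p = 0.0908), Ms4a3 was past the threshold neither untreated (0.0513) nor for the interaction (0.064), and the genes called untreated fell from 892 to 454. Over all genes, DESeq2 called 1427 untreated, 1534 for the interaction (936 with edgeR) and 2062 for 5-FU in Tespa1+/+ (1352 with edgeR, 2113 in the 12-library fit). Untreated, 338 to 365 were called without any 1 Tespa1-/- library and 551 without Tespa1+/+ replicate 2. For the interaction, 573 to 611 were called without any 1 untreated Tespa1-/- library. For 5-FU in Tespa1+/+, 783 to 816 were called without any 1 library of the 5-FU group and 863 without untreated replicate 2. Of the calls for 5-FU in Tespa1+/+, 47.4% were higher, and 58.1% with library totals without TMM.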
